A study of Mus musculus with 62 samples.

Results

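The genes described here code for the potassium channels of mouse striatum other than inward rectifiers: voltage-gated pore subunits, calcium- and sodium-activated channels, leak channels and their auxiliary subunits. They were taken from the count table as protein-coding rows whose mouse symbol starts with Kcn, without the inward rectifiers (Kcnj) and without 1 further Kcna gene that is not analysed here. Of 48795 rows, 83 carried such a symbol and 78 of these were protein-coding. A mean of at least 0.5 CPM (read counts scaled to the library total) over all 62 libraries was met by 64 genes and missed by 14. Just inside stood Kcnk5 at 0.548 and Kcne4 at 0.622 CPM, and just outside stood Kcnrg at 0.289 and Kcnn4 at 0.268 CPM. The level filter used mean levels over all libraries and no difference between groups. The members themselves were chosen with earlier results of these data known.

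Potassium channels let potassium leave the cell, which holds the resting potential down and ends the action potential. Striatal projection neurons, the main cell type of the striatum and the one most affected in Huntington's disease, sit at a very negative resting potential and are held there partly by potassium currents. A-type (Kv4) currents with KChIP subunits delay their first spike, M-type (KCNQ) currents damp repeated firing, and two-pore-domain (K2P) channels carry the leak.

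RNA of mouse striatum was sequenced in 2 series. One used R6/2 mice, a transgenic Huntington's disease model with mutant human HTT exon 1, beside NCAR mice, a name the sources leave unexplained and that was read as the control genotype. These animals were given PHP.eB viruses when 4 weeks old and RNA was taken when they were 11 weeks old. The other used zQ175 mice, with a mutant Htt allele knocked in, beside WT mice, with viruses delivered to the striatum when they were 6 months old and RNA taken when they were 12 months old. A-ZFP and N-ZFP are working zinc-finger repressors of mutant Huntingtin, and A-Delta and N-Delta are their control viruses, so every animal received a virus and no group is uninjected. By cell-type label, A viruses are for astrocytes and N viruses for neurons. The treatment protocol, in contrast, describes both kinds as astrocytic in the R6/2 series, and the cell-type labels were followed here. The promoters of the viruses are not given in the sources used here. All 8 groups of the R6/2 series (each genotype under A-Delta, A-ZFP, N-Delta and N-ZFP) are bulk tissue. The zQ175 series holds each genotype under N-Delta and N-ZFP, once as bulk tissue and once as neuronal RNA, in another 8 groups. Each group had 4 libraries, except R6/2 A-ZFP and WT N-ZFP bulk with 3. The labels do not say that libraries of a group came from separate animals, so p values measure the spread between these libraries.

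Library totals were 49237583 to 101295189 counts in the R6/2 series, 8664055 to 11211827 in zQ175 bulk and 4610476 to 12200813 in neuronal libraries. The tissue labels were borne out by markers: relative to WT bulk RNA, WT neuronal RNA was lower for 8 of 8 microglial, 8 of 8 oligodendrocyte and 9 of 10 astrocyte markers and higher for 9 of 10 projection neuron markers (edgeR, adjusted p under 0.05). Mouse Htt was at 192 to 294 CPM in zQ175 and WT bulk libraries and at 121 to 277 CPM in the R6/2 series, and was lower in zQ175 than in WT under N-Delta, at -0.47 ± 0.08 in bulk and -0.56 ± 0.10 in neuronal RNA. It did not change beyond the threshold under any ZFP virus, with log2 fold changes of -0.28 for N-ZFP in R6/2 and 0.10 and -0.07 for N-ZFP in zQ175 bulk and neuronal libraries. It is no test of R6/2 lowering, since the transgene there is human, and the counts do not separate the zQ175 alleles. All 4 NCAR N-Delta libraries had a low length index. This index, the Spearman correlation, across protein-coding genes, between transcript length and how far the log2 CPM in a library departs from the average, was -0.401 ± 0.0873 (SD, n = 4), against 0.277 ± 0.0714 in R6/2 N-Delta. Of the other libraries of the series, NCAR N-ZFP library 2 and R6/2 N-ZFP libraries 1 and 2, at -0.409, -0.323 and -0.424, lay in the same range. Longer transcripts thus read low in these libraries, and counts of called members that rest on the NCAR N-Delta group are given with and without the index as a covariate.

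Per kilobase of exon, the members highest by their mean over all libraries were Kcnab2 at 57.0 CPM per kb, Kcnd2 at 53.0, Kcnip2 at 45.7, Kcnab1 at 44.7 and Kcnk1 at 42.1. Kcnab1 and Kcnab2 are cytoplasmic beta subunits of Kv1 channels, Kcnd2 is the Kv4.2 pore subunit of the A-type current, Kcnip2 is its calcium-binding partner KChIP2, and Kcnk1 is the leak channel TWIK-1. The Kv1 pore subunits Kcna4 and Kcna1 followed at 37.3 and 32.4 CPM per kb. The order differed between the library sets, in levels scaled to library totals without further normalization. Kcnab2 was first in the R6/2 series at 55.6 CPM per kb, with Kcnk1 second at 46.1. Kcnd2 was first in zQ175 bulk at 55.5 and in neuronal RNA at 77.8, where Kcna4 stood at 62.5 and Kcnk1 at 38.6. Every family was represented: 10 of 12 calcium- or sodium-activated candidates passed the level filter, 8 of 8 EAG, ERG and ELK, 6 of 10 KCNQ and KCNE, 8 of 10 Kv1 and beta, 11 of 12 Kv2 and silent, 4 of 4 Kv3, 7 of 7 Kv4 and KChIP, and 10 of 15 K2P and other genes.

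In WT striatum under N-Delta, neuronal RNA was richer in most of these genes than bulk RNA. Of 63 members tested, 34 were higher and 7 lower in neuronal RNA, 65.1% in all, where 55.9% of all 17702 genes were called (26.3% higher and 29.6% lower). The median log2 fold change was 0.51 over the members and -0.04 over all genes. All 8 Kv1 and beta genes were higher, among them Kcna2 at 0.69 ± 0.09 and Kcna4 at 0.72 ± 0.10 (log2 fold change ± SE). Higher too were 6 of 8 EAG, ERG and ELK genes, among them Kcnh2, an ERG channel, at 0.88 ± 0.17 and Kcnh3, an ELK-type channel of forebrain neurons, at 0.79 ± 0.10. The silent subunit Kcnf1, which modifies Kv2 channels, was higher at 0.70 ± 0.09, with 140.0, 141, 137 and 124 CPM in neuronal and 86.2, 97.6, 85.9 and 76.8 CPM in bulk libraries, each normalized within its own set.

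The 7 members lower in neuronal RNA came mainly from the leak channels. They were Kcnk5 (TASK-2) at -2.76 ± 0.67, Kcnk6 (TWIK-2) at -1.71 ± 0.29, Kcnk13 (THIK-1, known from microglia) at -0.77 ± 0.14, Kcnk10 (TREK-2) at -0.69 ± 0.28, the auxiliary subunit Kcne1l at -1.68 ± 0.29, the sodium-activated Kcnt2 (Slick) at -0.81 ± 0.13 and the small-conductance Kcnn2 (SK2) at -0.48 ± 0.13. Kcnk10 and 5 higher members (Kcnab3, Kcnd1, Kcng3, Kcnh7 and Kcnip3) lost their call when 1 library or another was left out. Bulk and neuronal libraries carry the same numbers and may share animals, although no label says so.

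Most of these genes were lower in R6/2 than in NCAR striatum under A-Delta. Of 64 members, 38 were lower and 1 was higher, which is 59.4% lower against 15.3% of all 21752 genes tested, with 28.9% of all genes called in either direction and 13.7% higher. The median log2 fold change was -0.56 over the members and 0.02 over all genes. Each of the 8 families had lower members: 6 of 10 calcium- and sodium-activated, 5 of 8 EAG, ERG and ELK, 2 of 6 KCNQ and KCNE, 5 of 8 Kv1 and beta, 6 of 11 Kv2 and silent, 3 of 4 Kv3, 5 of 7 Kv4 and KChIP, and 6 of 10 K2P genes. In bulk tissue, fewer cells of a type and less RNA per cell cannot be told apart.

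Kcnh4, an ELK-type channel gene, fell furthest of the 64. It stood at 10.7, 11.7, 16.9 and 15.0 CPM in the 4 NCAR libraries and at 2.19, 1.18, 2.81 and 2.03 CPM in the 4 R6/2 libraries. All R6/2 libraries lay far below all NCAR libraries, a log2 fold change of -2.71 ± 0.28 (adjusted p = 4.55e-08). Kcnh3, its close relative, read 114, 103, 136 and 120.2 CPM in NCAR and 46.6, 43.0, 47.2 and 40.5 CPM in R6/2. Every R6/2 library was below the lowest NCAR library, at -1.42 ± 0.19 (adjusted p = 1.61e-06). Of the same family Kcnh5 (Eag2) fell by 0.88 and Kcnh7 (Erg3) fell by 1.01 on the log2 scale. The third ELK gene, Kcnh8, was the 1 member that rose, at 0.81 ± 0.21 (adjusted p = 0.00377), from a low level of 1.12 to 1.66 CPM in NCAR to 1.96 to 2.81 CPM in R6/2.

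Both abundant Kv4 partner subunits fell in R6/2 A-Delta libraries. Kcnip2 was at 168, 176, 215 and 203 CPM in NCAR and 80.4, 83.2, 84.3 and 74.5 CPM in R6/2. The R6/2 libraries lay close together and well under the NCAR range, at -1.24 ± 0.14 (adjusted p = 1.16e-07). Kcnip3 (KChIP3, also known as the transcriptional repressor DREAM) was at 114, 105, 126 and 110.1 CPM in NCAR and 61.7, 49.6, 51.7 and 52.7 CPM in R6/2, again without overlap, at -1.08 ± 0.12 (adjusted p = 1e-07). The smaller falls of Kcnip4 and Kcnip1 were -0.43 ± 0.09 and -0.64 ± 0.17. Of the Kv4 pore genes they serve, Kcnd1 fell at -0.63 ± 0.14, while the abundant Kcnd2 (-0.53 ± 0.21) and Kcnd3 (0.09 ± 0.15) did not pass the threshold.

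Among leak channels, Kcnk2 (TREK-1, opened by stretch and lipids) was at 61.4, 71.5, 84.0 and 82.6 CPM in NCAR and 33.7, 29.3, 32.6 and 34.2 CPM in R6/2. Its highest R6/2 library was below the lowest NCAR library, at -1.21 ± 0.13 (adjusted p = 6.35e-08). Kcnk13 was at 15.1, 13.6, 13.9 and 13.1 CPM in NCAR and 7.90, 6.06, 8.48 and 7.16 CPM in R6/2, also apart, at -0.91 ± 0.13 (adjusted p = 3.4e-06). Kcnk4 (TRAAK), a scarce relative of TREK-1 at 2.92 to 3.58 CPM in NCAR, fell at -1.998 ± 0.26 to 0.430 to 1.31 CPM; its exons overlap Catsperz on the same strand, so its reads are uncertain. Kcnk1, the most abundant leak channel, fell at -0.39 ± 0.10, and Kcnk3, Kcnk6, Kcnk9 and Kcnk10 did not pass the threshold.

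Kcnab1 (Kv beta 1, which speeds inactivation of Kv1 channels) was at 356, 403, 512 and 455 CPM in NCAR and 221, 163, 208 and 207 CPM in R6/2, without overlap, at -1.11 ± 0.16 (adjusted p = 8.47e-06). Kcnv1 (Kv8.1, a silent partner of Kv2) was at 132, 119, 113 and 112 CPM in NCAR and 69.8, 78.2, 70.5 and 80.4 CPM in R6/2. Its R6/2 values all lay under the NCAR values, at -0.67 ± 0.10 (adjusted p = 7.89e-06). In these families the pore genes Kcna1 (-0.97 ± 0.22) and Kcna2 (-0.63 ± 0.24) also fell, as did the silent Kcns3 (-1.31 ± 0.23) and Kcng4 (-1.19 ± 0.29). Kcna4, at -0.42 ± 0.22, did not pass. Calls kept throughout when 1 library or another was left out numbered 34 of 39, and those lost included Kcna2, Kcnc2, Kcnk12 and Kcns2.

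The fast-spiking Kv3 genes Kcnc1 (-0.77 ± 0.18) and Kcnc2 (-0.43 ± 0.12), known from interneurons, fell. Of the M-channel genes, Kcnq5 (-0.87 ± 0.17) and Kcnq3 (-0.91 ± 0.27) fell. Of the calcium-activated genes the BK pore Kcnma1 fell at -0.66 ± 0.12, together with its beta subunit Kcnmb4 at -0.46 ± 0.10, Kcnn1 (SK1) at -0.47 ± 0.15 and Kcnn2 at -0.48 ± 0.10. Kcnn3 (SK3) stood at -0.01 ± 0.26 with 32.3, 22.2, 35.8 and 31.7 CPM in NCAR and 32.9, 24.6, 32.8 and 30.7 CPM in R6/2, groups that overlap throughout. The sodium-activated Kcnt1 (-0.68 ± 0.15) and Kcnt2 (-0.93 ± 0.24) fell.

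**Figure D1:**
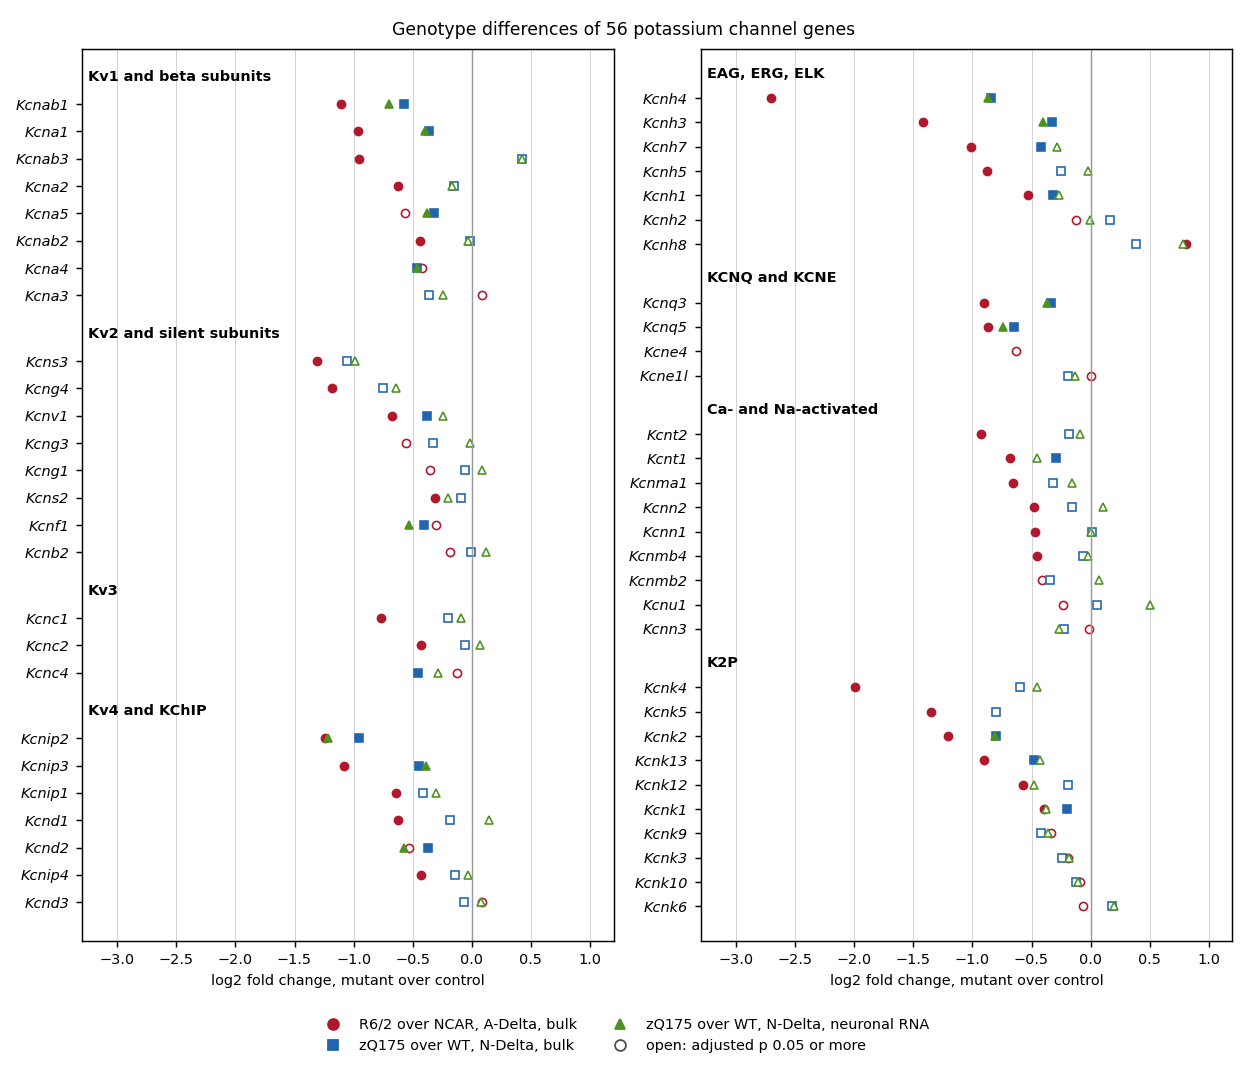
Log2 fold changes (horizontal axis) of the 56 members named in the text, in R6/2 over NCAR under A-Delta and in zQ175 over WT under N-Delta, bulk and neuronal, grouped by family; symbols mark the comparison and open symbols did not pass an adjusted p of 0.05. Points to the left of 0 prevail in each comparison, with Kcnh4 at -2.71 the lowest. Kcnh8 at 0.81 is the 1 filled point to the right.

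In zQ175 bulk tissue under N-Delta, a knock-in model sampled at 12 months, 22 of 62 members tested were lower than in WT and none was higher. That is 35.5% lower, against 9.57% of all 17114 genes lower, 6.44% higher and 16% called in either direction. The median log2 fold change was -0.32 over the members and 0.00 over all genes. At an unadjusted p under 0.05, 34 members were past the threshold, a count given without the share of all genes at that p. DESeq2 called 23 members lower and none higher. Lower members came from every family, from 4 of 8 EAG, ERG and ELK genes to 1 of 9 calcium- and sodium-activated genes.

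The Kv4 group held falling members again. Kcnip2 was at 274, 246, 224 and 236 CPM in WT and 124, 124, 126 and 132 CPM in zQ175, a log2 fold change of -0.96 ± 0.07 (adjusted p = 8.02e-09) with wide separation of the groups. Kcnip3 was at 102, 97.4, 96.1 and 89.2 CPM in WT and 70.0, 70.9, 71.3 and 70.5 CPM in zQ175, at -0.45 ± 0.06 (adjusted p = 1.43e-05). Here the pore gene Kcnd2 fell as well, at -0.37 ± 0.06 (adjusted p = 9.62e-05), from 335, 311, 312 and 308 CPM in WT to 232, 252, 246 and 249.9 CPM in zQ175. In each of these 3 genes all zQ175 libraries lay under all WT libraries, although the first WT library stood above its group for Kcnd2. Kcnd3 (-0.07 ± 0.09), Kcnip4 (-0.14 ± 0.07) and Kcnip1 (-0.41 ± 0.18) did not pass.

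Kcnq5, an M-channel subunit, was at 224, 184, 201 and 190.5 CPM in WT and 129.5, 123, 125 and 131 CPM in zQ175, without overlap, at -0.65 ± 0.07 (adjusted p = 7.84e-07). Kcnq3 fell with it, at -0.33 ± 0.10. Kcnab1 was at 500.4, 429, 416 and 447 CPM in WT and 300.3, 302, 292 and 311 CPM in zQ175, at -0.57 ± 0.07 (adjusted p = 3.88e-06). Kcna4 (Kv1.4, an inactivating Kv1 pore) was at 246, 209, 220.3 and 207 CPM in WT and 154, 162, 154 and 171 CPM in zQ175, at -0.46 ± 0.07 (adjusted p = 6.2e-05). Neither gene showed overlap between the genotypes, and the Kv1 genes Kcna1 (-0.36 ± 0.09) and Kcna5 (-0.32 ± 0.08) fell too, while Kcnab2 (-0.01 ± 0.05) and Kcna2 (-0.15 ± 0.07) did not pass.

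Kcnk2 was at 124, 84.8, 96.7 and 89.98 CPM in WT and 56.9, 62.3, 53.2 and 55.1 CPM in zQ175, at -0.80 ± 0.10 (adjusted p = 1.54e-05), with the first WT library the highest of all. Kcnh4 was at 28.0, 20.7, 21.0 and 18.4 CPM in WT and 11.7, 13.8, 11.3 and 12.4 CPM in zQ175, at -0.84 ± 0.15 (adjusted p = 0.000455), without overlap. Its relatives Kcnh7 (-0.42 ± 0.09), Kcnh3 (-0.33 ± 0.08) and Kcnh1 (-0.32 ± 0.08) also fell. Among the other falls were those of the silent Kcnf1 (-0.40 ± 0.07) and Kcnv1 (-0.38 ± 0.08), of Kcnk13 (-0.48 ± 0.11) and Kcnk1 (-0.20 ± 0.06), of Kcnc4 (-0.46 ± 0.14) and of Kcnt1 (-0.29 ± 0.08). Kcnk1, Kcnq3, Kcnc4 and Kcnt1 were not called in every fit that left out 1 library, and the other 18 of 22 were.

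In neuronal RNA of the same series, 15 of 62 members were lower in zQ175 and none was higher, which is 24.2% lower against 6.03% of 15815 genes lower, 3.33% higher and 9.36% in either direction. The member median was -0.24 and that of all genes 0.01. DESeq2 called 18 lower and none higher. Under an unadjusted p of 0.05 were 21 members, again without the share of all genes at that p. Without the filter on low counts 7 of the 15 stayed called, namely Kcnip2, Kcnab1, Kcnq5, Kcnh4, Kcnk2, Kcnf1 and Kcnd2. All 15 were also among the 22 lower in bulk tissue, which is 68.2% of those 22, in libraries that may come from the same animals. The same overlap over all genes was not computed. None of 63 members differed in its zQ175 effect between neuronal and bulk RNA by edgeR or DESeq2 (1 at an unadjusted p under 0.05; 0% of all genes called by edgeR).

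Kcnip2 was at 329, 281, 254 and 276 CPM in WT and 128, 114, 124 and 125 CPM in zQ175 neuronal RNA, at -1.22 ± 0.10 (adjusted p = 1.44e-06). Kcnk2 was at 165, 119, 111 and 122 CPM in WT and 80.2, 69.2, 69.4 and 76.3 CPM in zQ175, at -0.81 ± 0.11 (adjusted p = 0.000231). Kcnq5 was at 308, 263, 263 and 258 CPM in WT and 159, 155, 174.8 and 164 CPM in zQ175, at -0.74 ± 0.12 (adjusted p = 0.000668). In all 3 the genotypes were apart, and in Kcnk2 and Kcnq5 the first WT library was above the rest of its group. Kcnf1 fell from 140.0, 141, 137 and 124 CPM to 90.8, 90.8, 95.8 and 97.7 CPM, at -0.53 ± 0.09 (adjusted p = 0.000933), and Kcnh4 from 35.3, 29.9, 27.6 and 25.5 CPM to 15.1, 14.5, 15.8 and 19.2 CPM, at -0.87 ± 0.16 (adjusted p = 0.00177), both without overlap.

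The Kv1 pore gene Kcna1 fell in neuronal RNA too. It went from 277, 272, 240.0 and 254 CPM in WT to 193, 191, 204 and 204 CPM in zQ175, at -0.40 ± 0.09 (adjusted p = 0.00944). No zQ175 library reached its lowest WT library. Among the other falls were Kcnab1 (-0.70 ± 0.16), Kcnd2 (-0.57 ± 0.13), Kcnq3 (-0.37 ± 0.09), Kcnip3 (-0.39 ± 0.09), Kcna4 (-0.46 ± 0.12), Kcna5 (-0.38 ± 0.10) and Kcnh3 (-0.40 ± 0.11), of which Kcna4, Kcna5, Kcnh3 and Kcnip3 lost their call when 1 library or another was left out. None of the 10 calcium- and sodium-activated genes and none of the 4 Kv3 genes was called by edgeR in neuronal RNA.

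The R6/2 and zQ175 comparisons share no library. Of the 38 members lower in R6/2 under A-Delta and the 22 lower in zQ175 bulk, 16 were shared, which is 42.1% and 72.7% of each list. Of the 62 members tested in both, these 16 are 25.8%, where 6.49% of all genes tested in both were lower in both. Among the 6 lower in zQ175 bulk alone of these were Kcna4, Kcna5, Kcnc4, Kcnd2 and Kcnf1. Lower in R6/2 A-Delta, zQ175 bulk and zQ175 neuronal alike were 10 members, among them the Kv1 genes Kcna1 and Kcnab1, the ELK genes Kcnh3 and Kcnh4, the KChIPs Kcnip2 and Kcnip3, the leak channel Kcnk2, and the M-channel genes Kcnq3 and Kcnq5. The 10 are 16.4% of the 61 members tested in all 3 comparisons, where 4.1% of all genes so tested were lower in all 3. By mm10 coordinates Kcnh4 lies at chr11:100740376-100759942, Kcnip2 at chr19:45791839-45816061, Kcnip3 at chr2:127456498-127522094, Kcnk2 at chr1:189207930-189402273, Kcnab1 at chr3:65109384-65378223 and Kcnq5 at chr1:21398403-21961942. In leave-one-out fits Kcnq3 lost its zQ175 bulk call, and Kcnh3 and Kcnip3 their neuronal call at least once. Of the 64 members, 44 (68.8%) were lower in at least 1 of the 3 comparisons, against 17.9% of all genes tested in any, and 19 were called in none; Kcnh8 was called higher in R6/2.

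**Figure D2:**
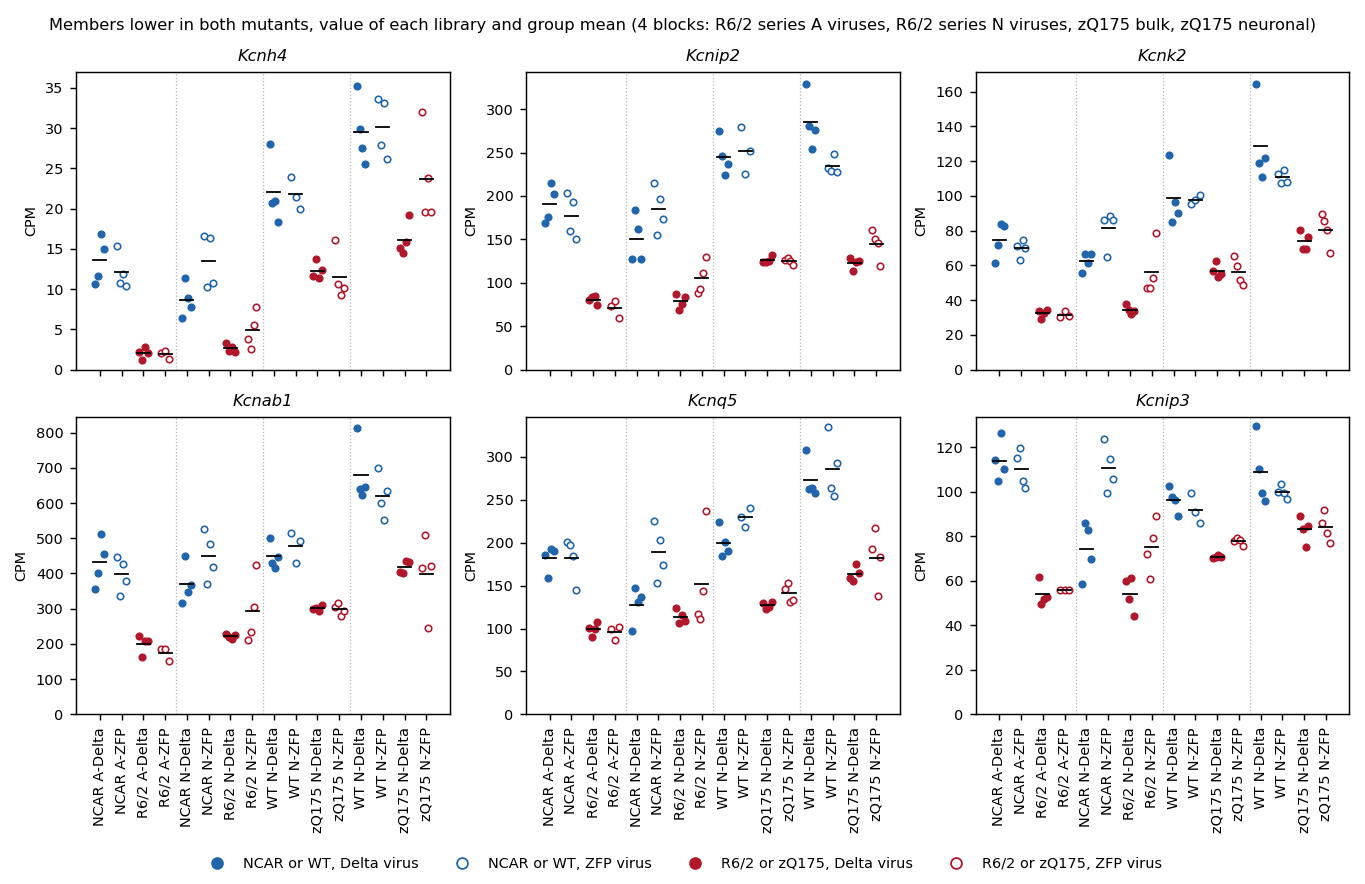
TMM-normalized CPM (vertical axis) in each library, 1 point per library with the group mean as a bar, for Kcnh4, Kcnip2, Kcnk2, Kcnab1, Kcnq5 and Kcnip3 in the control-virus and ZFP groups; the R6/2, zQ175 bulk and zQ175 neuronal sets were normalized separately. Under A-Delta and in both zQ175 sets under N-Delta the mutant points lie below the control points in each gene, as with Kcnip2 at 74.5 to 84.3 CPM in R6/2 against 168 to 215 CPM in NCAR.

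Markers of projection neurons, which express many of these channels, moved with the falls. Of 10 projection neuron markers, 9 were lower in R6/2 under A-Delta, 9 in zQ175 bulk and 9 in zQ175 neuronal RNA, with median log2 fold changes of -1.59, -1.02 and -1.04. The shares of all genes that were lower in these comparisons were 15.3%, 9.57% and 6.03%. The summed level of the projection neuron markers was 4084 to 5864 CPM in NCAR and 1367 to 2088 CPM in R6/2 under A-Delta. It was 6136 to 7215 CPM in WT and 3191 to 3406 CPM in zQ175 bulk, and 10001 to 12038 CPM in WT and 4661 to 5174 CPM in zQ175 neuronal RNA. Interneuron markers were lower for 8 of 8 in R6/2, 6 of 8 in zQ175 bulk and 0 of 8 in zQ175 neuronal RNA. Pan-neuronal markers were lower for 5 of 8 in R6/2, with sums of 6211 to 7033 CPM against 6780 to 7571 CPM in NCAR. In zQ175 neuronal RNA none of the 8 was lower and 1 was higher, and the pan-neuronal sums of 7480 to 7783 CPM lay above the 6850 to 7392 CPM of WT. In R6/2 under A-Delta, lists of other cells moved as well. Astrocyte sums were 6522 to 7075 CPM in NCAR and 4935 to 5037 CPM in R6/2. Oligodendrocyte sums were 7351 to 9153 CPM in NCAR and 4749 to 6724 CPM in R6/2. Endothelial or mural sums rose, from 273 to 342 CPM in NCAR to 360 to 402 CPM in R6/2, while microglial and oligodendrocyte precursor sums overlapped. The part of these shifts in the channel results was not tested.

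Proteins that bind or place these channels, with the HCN channels, were followed as a list of 27 genes, of which 25 passed the low-count filter in each set. In R6/2 under A-Delta 11 were lower and 1 higher, with Dlg4 (PSD-95, a scaffold for Kv1 and Kv4 channels) at -0.77 ± 0.10. In zQ175 bulk 6 were lower and 3 higher, with Akap5, an anchor of kinases at KCNQ channels, at -0.42 ± 0.07. In zQ175 neuronal RNA 3 were lower and 1 higher, with Akap5 at -0.48 ± 0.11 and Nedd4l, a ubiquitin ligase that acts on KCNQ channels, at -0.49 ± 0.09. Of all genes, 15.3% were lower and 13.7% higher in R6/2 under A-Delta, and 9.57% lower and 6.44% higher in zQ175 bulk. In zQ175 neuronal RNA the shares were 6.03% lower and 3.33% higher. The list medians were -0.26, -0.04 and -0.02, against -0.56, -0.32 and -0.24 for the channel genes.

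Under N-Delta, 26 of 64 members were lower and 9 higher in R6/2, 40.6% and 14.1%, at medians of -0.09 over members and -0.03 over all genes. The background was high, with 55.5% of all genes called, 28.4% lower and 27.1% higher, so the share of lower members was above its background and that of higher members below it. These comparisons rest on the NCAR N-Delta libraries described above. Their length index differed from that of R6/2 N-Delta by 0.678 (exact two-sided permutation p = 0.0286, the smallest that 4 against 4 allows, and 0.114 after adjustment over 4 genotype comparisons). With the length index as a covariate, 38 members were lower and 2 higher, at a member median of -0.52, where 24% of all genes were called (12.9% lower and 11.1% higher) at a median of 0.01. The index comes from the same counts, and its ranges do not overlap (-0.509 to -0.318 in NCAR, 0.232 to 0.383 in R6/2). Covariate and genotype are therefore hard to separate in this comparison.

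Kcnip2, Kcnk2, Kcnk13 and Kcnv1, all lower under A-Delta, were lower here too. Kcnip2 was at 128, 184, 162 and 128 CPM in NCAR and 86.6, 68.2, 75.8 and 83.5 CPM in R6/2 under N-Delta, at -0.94 ± 0.14 (adjusted p = 3.99e-06). Kcnk2 was at 55.5, 66.8, 61.4 and 66.8 CPM in NCAR and 37.9, 34.5, 32.3 and 33.5 CPM in R6/2, at -0.86 ± 0.13 (adjusted p = 5.51e-06). Neither gene had overlapping groups. Kcnk13 was at 18.1, 16.7, 14.3 and 15.2 CPM in NCAR and 9.66, 8.27, 8.24 and 6.53 CPM in R6/2, at -0.98 ± 0.13 (adjusted p = 7.55e-07), and Kcnv1 at 122, 106, 123 and 132 CPM and 76.5, 64.1, 92.6 and 73.8 CPM, at -0.65 ± 0.10 (adjusted p = 6.02e-06). Again the R6/2 libraries lay below all NCAR libraries.

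Kcnt2 was at 262, 115, 204 and 234 CPM in NCAR and 45.7, 46.9, 62.5 and 53.2 CPM in R6/2, at -1.97 ± 0.24 (adjusted p = 4.15e-07). Kcnh5 was at 76.6, 42.5, 59.99 and 62.7 CPM in NCAR and 26.6, 26.6, 27.5 and 26.9 CPM in R6/2, at -1.17 ± 0.15 (adjusted p = 9.29e-07), and Kcns3 at 6.96, 3.93, 5.32 and 5.88 CPM and 2.19, 1.51, 2.32 and 2.00 CPM, at -1.46 ± 0.23 (adjusted p = 1.28e-05). In each the second NCAR library was the lowest of its group, yet above every R6/2 library. Kcnd3 (Kv4.3) was the 1 higher member with values here: it was at 22.6, 36.2, 31.9 and 33.2 CPM in NCAR and 65.7, 56.5, 62.7 and 53.7 CPM in R6/2, at 0.94 ± 0.15 (adjusted p = 1.23e-05), without overlap. Under A-Delta the same gene did not pass, at 0.09 ± 0.15. Among the other higher members were Kcnh8 (1.14 ± 0.21), Kcnn3 (1.11 ± 0.26), Kcng1 (1.10 ± 0.24), Kcna3 (0.48 ± 0.15), Kcnb2 (0.44 ± 0.14), Kcnk6 (0.64 ± 0.21) and Kcnh2 (0.46 ± 0.17). With the length index as a covariate, Kcnd3 (0.54) and Kcnh8 (1.37) stayed called higher, Kcnn3 (0.26), Kcng1 (0.31) and Kcna3 (0.38) were no longer called, and the values of Kcnh2, Kcnk6 and Kcnb2 turned to -0.0736, -0.0394 and -0.0181. The lower members given with their libraries stayed called, at -1.28 for Kcnip2, -1.25 for Kcnk2, -1.04 for Kcnk13, -0.69 for Kcnv1, -1.19 for Kcnt2, -1.21 for Kcnh5 and -1.59 for Kcns3.

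The genotype effect itself differed between N-Delta and A-Delta for 20 of 64 members by edgeR, 19 more positive and 1 more negative under N-Delta, 31.2% where 22.9% of all genes were called (11.3% higher and 11.6% lower). The largest were Kcng1, a silent Kv2 partner, at 1.45 ± 0.34 (adjusted p = 0.0223), and Kcnq3 at 1.33 ± 0.39 (adjusted p = 0.0238). No member was left with the length index as a covariate, without NCAR N-Delta libraries 1 and 4, or without any 1 of NCAR A-Delta library 1, R6/2 A-Delta library 2, NCAR N-Delta library 1 and R6/2 N-Delta library 1. The counts were 11, 9 and 13 without NCAR A-Delta library 3, NCAR A-Delta library 4 and NCAR N-Delta library 4.

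In NCAR mice alone, 35 of 64 members were lower and 1 higher under N-Delta than under A-Delta, 54.7% lower, where 19% of all genes were lower, 18% higher and 37% called. The member median was -0.47. The lower members included Kcng1 at -1.12 ± 0.24 (adjusted p = 0.00211), Kcnc1 at -0.85 ± 0.18 (adjusted p = 0.00188) and the acid-sensitive leak channel Kcnk9 (TASK-3) at -0.82 ± 0.15 (adjusted p = 0.0013), and Kcnt2 was the higher one at 0.73 ± 0.24 (adjusted p = 0.0178). No member was called with the length index as a covariate or without NCAR N-Delta libraries 1 and 4, and 22 were called without library 1 alone. The NCAR A-Delta libraries had an index of -0.249 to 0.249, above every NCAR N-Delta library, so covariate and virus are hard to separate here. Thalamic or hypothalamic markers were higher for 4 of 8 in these NCAR N-Delta libraries; Pmch, a hypothalamic peptide gene, was at 6.73, 0.537, 0.359 and 27.7 CPM in libraries 1 to 4. Their part in the result was not tested.

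**Figure D3:**
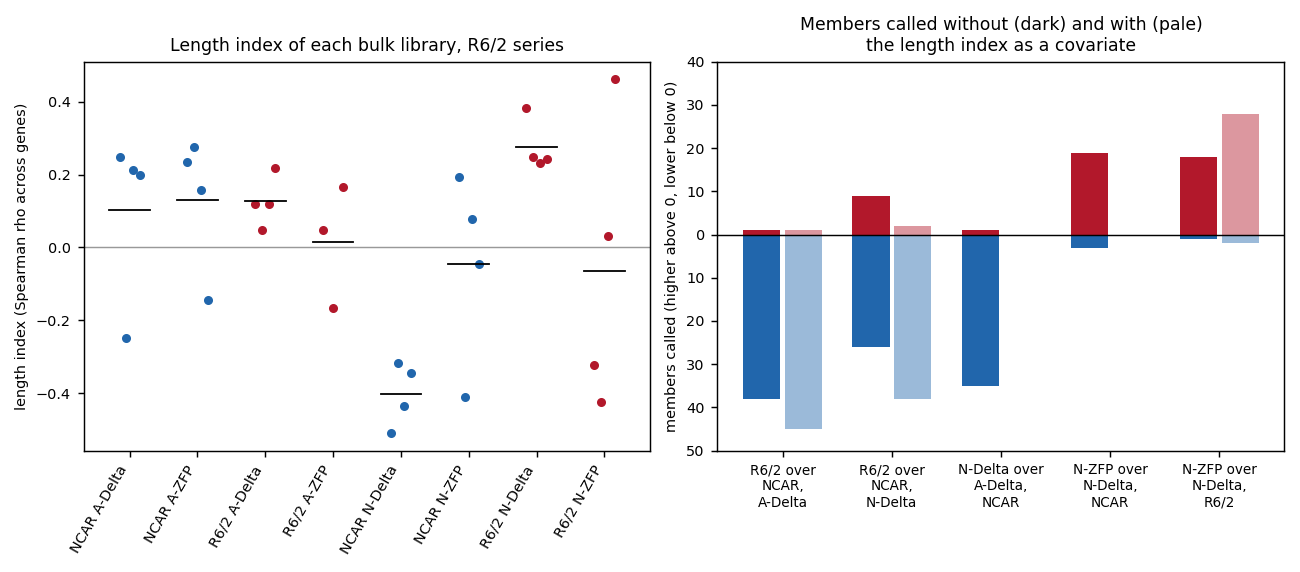
Left, the length index (Spearman correlation, no unit) of each bulk library of the R6/2 series, 1 point per library with the group mean as a line; right, the members called higher (above 0) and lower (below 0) in 5 comparisons without (dark) and with (pale) the length index as a covariate. The NCAR N-Delta libraries lie between -0.509 and -0.318, below the R6/2 N-Delta libraries, and under N-Delta the count moves from 26 lower and 9 higher to 38 lower and 2 higher.

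With the astrocyte-labelled repressor no member passed the threshold. None was called for A-ZFP over A-Delta in R6/2 or in NCAR by edgeR or DESeq2, with 0.0322% and 0.0184% of all genes called. At an unadjusted p under 0.05 there were 3 members in R6/2 and 1 in NCAR, without a share of all genes at that threshold beside them. Log2 fold changes ran from -0.43 to 0.72 in R6/2 and from -0.32 to 0.41 in NCAR. Kcnip2, for example, was at 72.8, 79.5 and 59.0 CPM in the 3 R6/2 A-ZFP libraries against 80.4, 83.2, 84.3 and 74.5 CPM under A-Delta, and Kcnh4 at 2.07, 2.30 and 1.33 against 2.19, 1.18, 2.81 and 2.03 CPM. For both genes the viruses overlap and every R6/2 library stays under every NCAR A-Delta library.

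The neuron-labelled repressor moved a number of them in R6/2 mice. Under N-ZFP 18 of 64 members were higher and 1 was lower than under N-Delta, 28.1% higher against 8.2% of all genes higher, 4.86% lower and 13.1% in either direction. The member median was 0.25 and that of all genes 0.02. Members of every family but the KCNQ and KCNE genes rose: 4 of 10 calcium- and sodium-activated, 2 of 8 EAG, ERG and ELK, 2 of 8 Kv1 and beta, 2 of 11 Kv2 and silent, 1 of 4 Kv3, 4 of 7 Kv4 and KChIP, and 3 of 10 K2P genes. Of the 18, 16 were among the 38 lower in R6/2 under A-Delta, a comparison with no library in common. These are 88.9% of the 18 and 42.1% of the 38. The other 2 were Kcnmb2 and Kcnu1. Of all 64 members, 59.4% were lower under A-Delta, and the same overlap over all genes was not computed.

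All 4 KChIP genes rose with N-ZFP. Kcnip4 was at 50.2, 49.4, 51.0 and 54.0 CPM under N-Delta and 83.9, 78.2, 78.0 and 68.1 CPM under N-ZFP, at 0.59 ± 0.09 (adjusted p = 0.000141). Kcnip1 was at 11.1, 11.8, 12.7 and 11.3 CPM and 30.1, 21.8, 17.1 and 17.2 CPM, at 0.88 ± 0.17 (adjusted p = 0.000907). Neither gene had overlapping groups, and the first N-ZFP library was the highest for both. Kcnip3 and Kcnip2 rose at 0.47 ± 0.12 and 0.43 ± 0.14, and both lost their call when 1 library or another was left out. The 3 Kv4 pore genes stood between -0.06 and 0.01 and did not pass.

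Of the leak channels, Kcnk2 was at 37.9, 34.5, 32.3 and 33.5 CPM under N-Delta and 46.8, 46.8, 52.5 and 78.5 CPM under N-ZFP, at 0.70 ± 0.13 (adjusted p = 0.000655). All N-ZFP libraries were above all N-Delta libraries, the fourth by far. Kcnk4 rose at 1.43 ± 0.26 and Kcnk5 at 1.05 ± 0.30, both from scarce levels, and Kcnk5 was called in 5 of 8 fits that left out 1 library. The BK beta subunit Kcnmb2 was at 1.41, 1.92, 1.73 and 1.33 CPM under N-Delta and 3.20, 2.93, 2.97 and 2.51 CPM under N-ZFP, at 0.86 ± 0.16 (adjusted p = 0.000759), and Kcnmb4 at 31.5, 26.7, 35.8 and 28.2 and 36.1, 44.7, 46.6 and 37.0 CPM, at 0.43 ± 0.11 (adjusted p = 0.00855). Both BK beta genes were separated between the viruses, while the BK pore Kcnma1 stood at -0.00 ± 0.12.

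Kcnh3 was at 37.0, 34.9, 40.7 and 31.5 CPM under N-Delta and 53.8, 53.0, 71.1 and 72.4 CPM under N-ZFP, at 0.80 ± 0.19 (adjusted p = 0.00546), without overlap. Kcns3, which slows Kv2 channels as a silent subunit, was at 2.19, 1.51, 2.32 and 2.00 CPM and 3.39, 5.04, 2.18 and 5.66 CPM, at 1.02 ± 0.23 (adjusted p = 0.00466). Here the third N-ZFP library lay inside the N-Delta range. The other risers were Kcnh4 (0.88 ± 0.28), Kcnt2 (0.81 ± 0.24), Kcnu1 (0.36 ± 0.11), Kcnab2 (0.35 ± 0.09), Kcnab3 (0.79 ± 0.24), Kcnv1 (0.40 ± 0.10) and Kcnc2 (0.50 ± 0.12). Of these, Kcnc2 alone was called in every fit that left out 1 library, and over all 19 calls 10 were. The count was 11 without R6/2 N-Delta library 2, 8 with only the compared groups in the fit and 30, of which 28 higher, with the length index as a covariate, where 9.79% of all genes were called and 6.34% were higher.

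Projection neuron markers were higher for 5 of 10 and interneuron markers for 6 of 8 in R6/2 under N-ZFP, where 8.2% of all genes were higher and 4.86% lower. The summed projection neuron level was 2097 to 2538 CPM under N-Delta and 2336 to 4539 CPM under N-ZFP, and the interneuron sum 173 to 196 CPM and 255 to 295 CPM. The length index of the 4 N-ZFP libraries was -0.323, -0.424, 0.0316 and 0.461, a wider spread than in N-Delta, with the fourth library also the highest for Kcnk2. Among partner proteins 5 of 25 were higher and 1 lower, with Dlg4 at 0.37 ± 0.10 and Lgi1, a secreted regulator of Kv1 channels, the lower one at -0.38 ± 0.09. The part of these in the channel results was not tested.

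**Figure D4:**
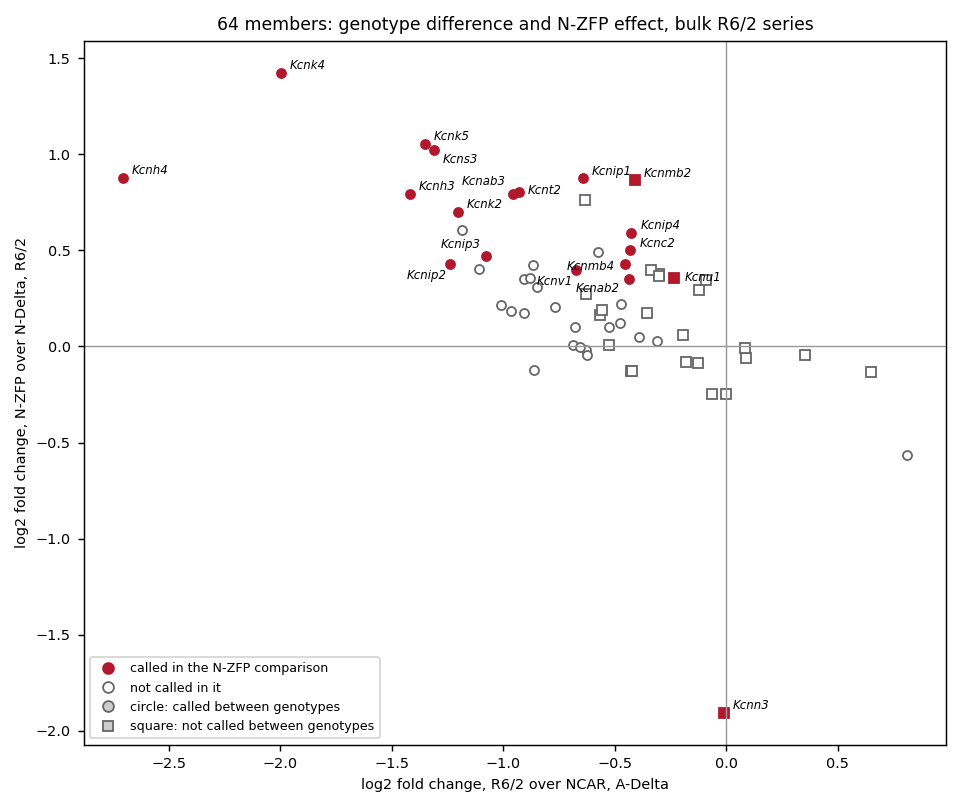
For each member, the log2 fold change of R6/2 over NCAR under A-Delta (horizontal axis) and of N-ZFP over N-Delta in R6/2 (vertical axis), comparisons with no library in common; filled points were called in the N-ZFP comparison, circles were called between genotypes and squares were not. Of the 38 members lower with genotype, 16 sit high with N-ZFP, an overlap not computed over all genes. Kcnn3 stands alone at the bottom at -1.91 with a genotype value of -0.01.

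Kcnn3, the SK3 small-conductance calcium-activated channel that follows spikes with a hyperpolarization, was the 1 member that fell with N-ZFP in R6/2 mice. It was at 43.1, 40.3, 36.9 and 34.5 CPM under N-Delta and 8.04, 8.82, 10.7 and 13.8 CPM under N-ZFP. All N-ZFP libraries were far below all N-Delta libraries, at -1.91 ± 0.27 (adjusted p = 2.96e-05). Over the alternative settings the log2 fold change ran from -1.91 to -1.49, and with 1 library left out it ran from -2.08 to -1.80 and passed in all 8 fits, with a largest adjusted p of 0.00037. In NCAR mice Kcnn3 was at 10.9, 24.7, 17.0 and 18.9 CPM under N-Delta and 29.5, 7.95, 13.3 and 14.7 CPM under N-ZFP, at -0.13 ± 0.26 (adjusted p = 0.755), with wide spread and overlap. The difference between the genotypes in this effect was -1.78 ± 0.37 (adjusted p = 0.00269) by edgeR, and -0.84 (adjusted p = 0.271) with the length index as a covariate. Under A-ZFP it was at 21.5, 22.3 and 23.6 CPM in R6/2 against 32.9, 24.6, 32.8 and 30.7 CPM under A-Delta, at -0.43 ± 0.28 (adjusted p = 1), where the 3 A-ZFP libraries all lay below the 4 A-Delta libraries without passing across all genes.

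In zQ175 neuronal RNA Kcnn3 was at 72.1, 77.5, 81.0 and 76.4 CPM under N-Delta and 69.5, 32.8, 80.5 and 33.2 CPM under N-ZFP, at -0.53 ± 0.26 (adjusted p = 0.17). In WT neuronal RNA it was at 91.4, 99.8, 91.1 and 87.7 CPM and 61.4, 37.3, 68.2 and 38.0 CPM, at -0.85 ± 0.25 (adjusted p = 0.419). All WT N-ZFP libraries were below all WT N-Delta libraries, yet neither comparison passed across all genes. With the length index as a covariate both did, at -1.004 (adjusted p = 0.00148) in zQ175 and -1.30 (adjusted p = 3.64e-05) in WT. In both genotypes N-ZFP libraries 2 and 4 were low and libraries 1 and 3 high. The mitochondrial share of counts split the same way, at 0.291% and 0.416% in zQ175 libraries 2 and 4 against 2.51% and 4.31% in libraries 1 and 3, and at 0.216% and 0.229% in WT libraries 2 and 4 against 0.801% and 1.05%. The length index split likewise. In zQ175 it was 0.1385 and 0.1662 in libraries 1 and 3 against -0.1509 and -0.0826 in libraries 2 and 4. In WT it was 0.0454 and 0.127 against -0.00881 and -0.0589. Library totals in zQ175 were 6524661 and 4610476 counts in libraries 1 and 3 against 10062481 and 10326166 in libraries 2 and 4, without such a split in WT. The part of these in the result, with or without the covariate, was not tested. In bulk tissue Kcnn3 did not pass, with 58.7, 69.0, 69.7 and 59.6 CPM under N-Delta and 79.6, 51.2, 59.8 and 54.4 CPM under N-ZFP in zQ175 and 84.9, 70.4, 81.5 and 64.5 and 72.2, 83.5 and 62.9 CPM in WT.

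Kcnn3 and Kcnh3 are the members with the longest uninterrupted CAG run in their transcripts, and CAG is the triplet expanded in mutant Huntingtin, so both runs are shown. The runs were found by searching every GENCODE M21 transcript for repeats of CAG on its own strand. Both genes hold 7 triplets, which 136 of 21772 protein-coding genes (0.625%) reach or exceed. The next member, Kcnc1, holds 5, which 351 genes (1.61%) and 3 members reach or exceed. The longest CTG run, which is CAG on the other strand, was 5 in any member, in Kcnab1 and Kcnk12. The lines give 141 bases of mm10 on the plus strand with the run in capitals, for Kcnn3 at chr3:89520607-89520747 in exon 1 of 8, where the run at chr3:89520667-89520687 is coding and in frame, and for Kcnh3 at chr15:99232730-99232870 in exon 8 of 15, where the run at chr15:99232790-99232810 is coding and in another frame.
Kcnn3: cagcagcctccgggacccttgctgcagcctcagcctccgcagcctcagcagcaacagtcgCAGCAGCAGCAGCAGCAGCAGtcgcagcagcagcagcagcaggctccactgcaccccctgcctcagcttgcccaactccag
Kcnh3: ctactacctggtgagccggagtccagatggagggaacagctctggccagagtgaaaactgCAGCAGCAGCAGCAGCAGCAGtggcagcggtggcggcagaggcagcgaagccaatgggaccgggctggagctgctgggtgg
The Kcnn3 run is followed, after 1 other triplet, by further CAG triplets. In R6/2 mice N-ZFP went with a fall of Kcnn3 (-1.91 ± 0.27) and a rise of Kcnh3 (0.80 ± 0.19). A part of the runs in either change was not tested. The sequence the zinc-finger proteins were made to bind is not given in the sources used here, and no binding was measured.

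**Figure D5:**
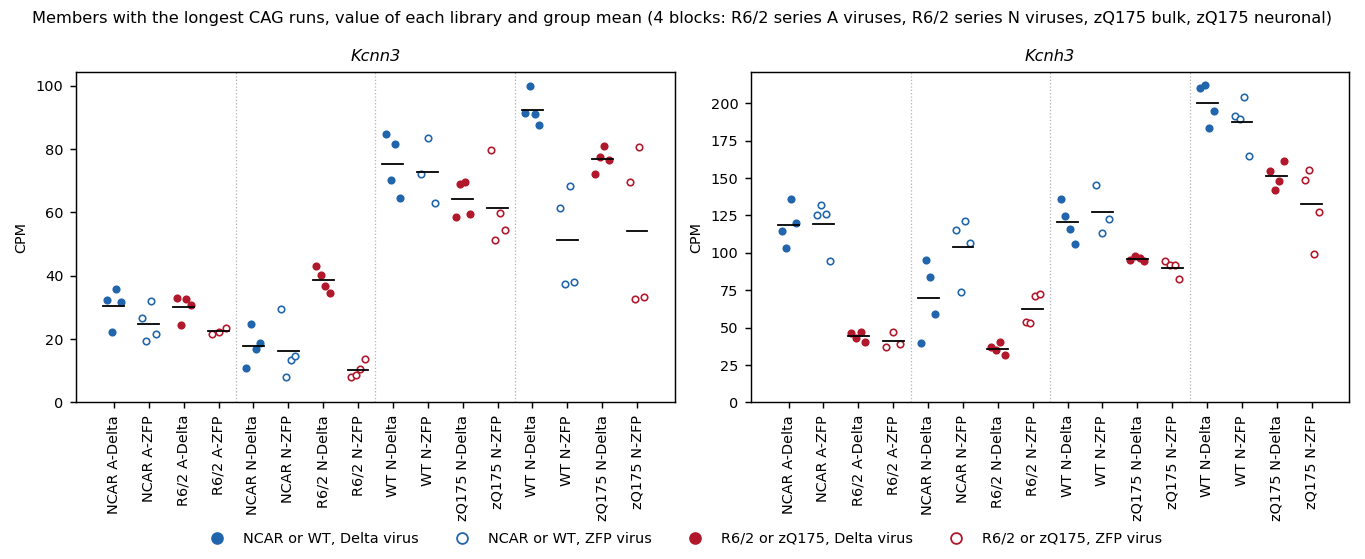
TMM-normalized CPM (vertical axis) of Kcnn3 and Kcnh3 in each library of all 16 groups, 1 point per library with the group mean as a bar; the R6/2, zQ175 bulk and zQ175 neuronal sets were normalized separately. Kcnn3 drops from 34.5 to 43.1 CPM under N-Delta to 8.04 to 13.8 CPM under N-ZFP in R6/2, and Kcnh3 is lower in R6/2 than in NCAR under A-Delta.

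In NCAR mice, 19 of 64 members were higher and 3 lower under N-ZFP than under N-Delta, 29.7% higher against 11.8% of all genes higher, 10.2% lower and 22% in either direction. Medians were 0.20 over members and -0.01 over all genes. These calls rest on the NCAR N-Delta libraries. No member was called with the length index as a covariate, with only the compared groups in the fit, without NCAR N-Delta libraries 1 and 4 together, or without NCAR N-Delta library 1, NCAR N-Delta library 4 or NCAR N-ZFP library 3 alone, and 1 was called without NCAR N-ZFP library 1 or 4. None of the 22 calls was kept in every fit that left out 1 library.

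Kcnip3 was at 58.7, 85.8, 83.0 and 69.8 CPM under N-Delta and 124, 99.2, 114 and 106 CPM under N-ZFP in NCAR, at 0.57 ± 0.12 (adjusted p = 0.0136). Kcnq3 was at 60.3, 148, 114 and 114 CPM and 286, 141, 290.4 and 224 CPM, at 1.11 ± 0.28 (adjusted p = 0.0195), and Kcnq5 at 96.8, 147, 131 and 136 CPM and 225, 153, 203 and 174 CPM, at 0.56 ± 0.17 (adjusted p = 0.0267). Kcnip3 and Kcnq5 were apart and Kcnq3 overlapped, with the first N-Delta library the lowest in each. Kcnc1 was at 32.2, 53.8, 44.0 and 43.8 CPM and 72.4, 53.9, 79.5 and 66.7 CPM (0.65 ± 0.18), and Kcnt1 (Slack) at 52.5, 93.2, 74.5 and 66.3 CPM and 116, 75.4, 116 and 103 CPM (0.52 ± 0.15). Kcnt1 overlapped and Kcnc1 touched without overlap. The scarcer Kcnn1 was at 7.02, 11.49, 11.0 and 7.57 CPM and 13.2, 11.8, 14.9 and 13.5 CPM (0.52 ± 0.15), and Kcnd1 at 3.17, 4.84, 4.28 and 4.07 CPM and 5.83, 4.95, 6.64 and 5.58 CPM (0.49 ± 0.14). Both were separated by a narrow gap, with the second N-ZFP library the lowest of its group.

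The N-ZFP effect differed between R6/2 and NCAR for 15 of 64 members, 12 more positive and 3 more negative in R6/2, 23.4% where 32.3% of all genes were called (17% higher and 15.3% lower). Kcnt2 was called in opposite directions. In NCAR it was at 262, 115, 204 and 234 CPM under N-Delta and 82.4, 140.5, 110.3 and 109 CPM under N-ZFP, a log2 fold change of -0.88 ± 0.24 (adjusted p = 0.0212) with overlap at the second N-Delta library. In R6/2 it was at 45.7, 46.9, 62.5 and 53.2 CPM and 93.5, 126, 91.1 and 53.1 CPM, a log2 fold change of 0.81 ± 0.24 (adjusted p = 0.0257) with overlap, and the difference was 1.69 ± 0.34 (adjusted p = 0.00211). By edgeR with the length index as a covariate, Kcnt2 passed neither in NCAR (-0.48, adjusted p = 0.265) nor in R6/2 (0.36, adjusted p = 0.268). Its difference was then 0.85 (adjusted p = 0.187). With only the compared groups in the fit, neither call passed (adjusted p = 0.0911 in NCAR and 0.0755 in R6/2). Without NCAR N-Delta libraries 1 and 4 its NCAR call was lost (-0.53), while its difference stayed called (1.33, adjusted p = 0.0297). Kcnu1, a channel known from sperm and scarce here, was likewise called in both directions. It was at 2.81, 2.87, 2.76 and 2.69 CPM under N-Delta and 3.83, 3.41, 3.90 and 3.12 CPM under N-ZFP in R6/2 (0.36 ± 0.11), and at 4.25, 3.78, 3.33 and 4.12 and 2.69, 2.79, 3.25 and 3.32 CPM in NCAR (-0.36 ± 0.11). The viruses did not overlap in either genotype, by a narrow margin in NCAR. With the length index as a covariate 3 members were called for the difference, where 1.09% of all genes were called. Without NCAR N-Delta libraries 1 and 4, which leaves a smaller group and less power, there were 7. Without R6/2 N-ZFP library 4 there were 31. Shares of all genes in the fits without libraries are not given here.

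In zQ175 and WT mice edgeR called no member for N-ZFP. In bulk tissue no member was called for N-ZFP over N-Delta in zQ175 or in WT by edgeR or DESeq2, with 0% of all genes called by edgeR in both. At an unadjusted p under 0.05 there were 5 members in zQ175 and 9 in WT, counts given without the share of all genes at that threshold. Kcnip2 was at 126, 128, 125 and 121 CPM under N-ZFP and 124, 124, 126 and 132 CPM under N-Delta in zQ175 bulk, at -0.01 ± 0.07, below every WT library under either virus.

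In neuronal RNA none was called by edgeR, with 0.329% of all genes called in zQ175 and 0.126% in WT. In each, 9 members were under an unadjusted p of 0.05, where the share of all genes is not given. DESeq2 called Kcnh4 higher (0.54, adjusted p = 0.0309) and Kcns2, a silent Kv2 subunit, lower in zQ175, and Kcnf1 lower (-0.35, adjusted p = 0.0197) in WT. Kcnh4 was at 15.1, 14.5, 15.8 and 19.2 CPM under N-Delta and 32.0, 19.6, 23.8 and 19.5 CPM under N-ZFP in zQ175 neuronal RNA, at 0.54 ± 0.16 (adjusted p = 0.0811) by edgeR. Without zQ175 N-ZFP library 2 there were 7 members called, Kcnh4 among them at 0.61 (adjusted p = 0.021), and without library 4 there were 5. Kcnh4 was highest in N-ZFP libraries 1 and 3, the libraries of high mitochondrial share and low total described for Kcnn3. That share was 2.51% and 4.31% in libraries 1 and 3 against 0.291% and 0.416% in libraries 2 and 4. The part of this split in the Kcnh4 result was not tested. No member differed in the N-ZFP effect between zQ175 and WT by edgeR or DESeq2, in bulk (3 at an unadjusted p under 0.05) or in neuronal RNA (4), with 0% of all genes called by edgeR in both.

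Reads of some members cannot be told from those of overlapping genes, since it is not stated whether counting used strand. Annotated genes on the other strand overlap the exons of 18 members, among them Kcnab1, Kcnh3, Kcnh7, Kcnk2, Kcnq5, Kcnt2 and Kcnd3, and Gm16334 and Catsperz overlap Kcnab2 and Kcnk4 on the same strand. Kcnip2, Kcnip3, Kcnh4, Kcnn3 and Kcnd2 have no such overlap.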

How the data were processed

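RNA of mouse striatum was measured by RNA-seq in 62 libraries of 16 groups. Per the labels' protocols, RNeasy kits served for extraction and the TruSeq Stranded Total RNA kit for the libraries. Per the submitters' processing notes, STAR, HTSeq and the mm10 build were used; versions and the strand setting are not given in the sources used here. The deposited table gives the authors' raw counts per Ensembl gene in 48795 rows, of which 48435 were matched to a GENCODE M21 symbol. No column was left without a sample. Genes with no symbol stayed in the tests.

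Counts were tested with edgeR 4.0.16 in R 4.3.3: TMM normalization, filterByExpr by group, each group as its own coefficient and the quasi-likelihood F test, with Benjamini-Hochberg adjustment over all genes tested and calls at an adjusted p under 0.05. The R6/2 series (21752 genes, 64 members), zQ175 bulk (17114 genes, 62 members, without Kcne4 and Kcnmb1), zQ175 neuronal (15815 genes, 62 members, without Kcne4 and Kcnk5) and all zQ175 libraries together (17702 genes, 63 members, without Kcne4) were fitted separately, so levels are comparable within a fit only, and 19 comparisons were made. Counts of members at an unadjusted p under 0.05 are given without the share of all genes at that threshold. CPM values of members in single libraries are TMM-normalized. The level filter, levels per kilobase, marker sums and the CPM of Htt and Pmch are scaled to library totals only. The SE of a log2 fold change is its size divided by the square root of F. The steps were tested on simulated data. A count of 0 allows up to 3 counts, which is 0.0296 to 0.0609 CPM in the R6/2 series, 0.268 to 0.346 CPM in zQ175 bulk and 0.246 to 0.651 CPM in neuronal libraries. These limits cover counting error alone. Among 90 pairs of libraries within groups, 0 were identical.

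The members and lists were chosen with earlier results of these data known. Values in every library are given for up to 8 called members of smallest adjusted p in each genotype or ZFP comparison, provided their mean was 2 CPM or more, and for members called in opposite directions; others are named by family, and Kcnn3 and Kcnh3 in all groups, Kcnc1, Kcnab1 and Kcnk12 for their repeats, and values set beside a result were added after their values were seen. A few genes are counted but not reported by name here. Same-numbered libraries did not deviate together in every pair of any 2 compared groups (correlations from -0.295 to 0.465), so groups were compared unpaired. DESeq2 1.42.0, RLE factors, no filter, only the groups compared, the replicate number as a block, the length index as a covariate, length and GC offsets and leaving out libraries were tried as alternatives. Removing NCAR N-Delta libraries 1 and 4 together was chosen after seeing the data.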

Additional observations from a re-analysis of the deposited data

Results flagged for a closer look

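In 93 pairs of a member and a group of 4 libraries, tested for a library far from the others, 2 stood out. Chance alone would mark about 1 in 20 independent pairs. These pairs share libraries, and their members were chosen by smallest adjusted p, so that rate is only a rough guide. Kcnd2 in WT N-Delta bulk library 1, at 335 CPM, lay apart from the rest of its group by 0.852 of the group's range, and Kcnq5 in WT N-Delta neuronal library 1, at 308 CPM, by 0.891.

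The N-ZFP effect differed between R6/2 and NCAR mice for 15 members by an interaction test in edgeR. The differences with the smallest p among genes of at least 2 CPM were 1.69 for Kcnt2, -1.78 for Kcnn3, 0.63 for Kcnv1 and 0.72 for Kcnu1 (log2). With the length index as a covariate those of Kcnt2 (0.85) and Kcnn3 (-0.84) did not pass. The genotype effect differed between N-Delta and A-Delta for 20 members, with differences of 0.86 for Kcnd3, 1.45 for Kcng1, 0.62 for Kcnip3 and 1.13 for Kcna1. Both sets rest on the NCAR N-Delta libraries, whose length index lay from -0.509 to -0.318.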

How the results depend on the processing

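Counts of called members are given. With the length index as a covariate, N-ZFP in R6/2 gave 30, N-ZFP in NCAR 0, its difference between genotypes 3, the genotype difference between control viruses 0, N- over A-Delta in NCAR 0, N-ZFP in WT bulk 2, and N-ZFP in zQ175 and WT neuronal RNA 1 each (Kcnn3). This covariate called 9.79% of all genes for N-ZFP in R6/2, 1.09% for its difference and 1.71% in WT bulk. In zQ175 and WT neuronal RNA it called 0.55% and 0.405%. Under it Kcnh2 (-0.0736), Kcnk6 (-0.0394) and Kcnb2 (-0.0181) turned in R6/2 over NCAR under N-Delta and Kcnq5 (0.0158) in N- over A-Delta. Length and GC offsets turned Kcnb2 (-0.16) in the former and gave 8 for N-ZFP in NCAR and 21 for N- over A-Delta. Only the groups compared gave 8 for N-ZFP in R6/2, 0 for N-ZFP in NCAR and 25 for zQ175 neuronal RNA. Without NCAR N-Delta libraries 1 and 4, N-ZFP in NCAR gave 0, its difference 7, the genotype difference 0 and N- over A-Delta 0. No filter gave 1 for N-ZFP in WT bulk and 7 for zQ175 over WT in neuronal RNA. DESeq2 gave 2 for N-ZFP in zQ175 neuronal RNA and 1 in WT neuronal RNA. The replicate block gave 2 for N-ZFP in zQ175 neuronal RNA (Kcnh4 and Kcns2) and otherwise left each count within 1.5 times. The cause was not tested. Leaving out 1 library gave 36 to 42 for R6/2 under A-Delta, 33 to 43 under N-Delta, 19 to 29 for zQ175 bulk, 12 to 15 for zQ175 neuronal RNA, 11 to 20 for N-ZFP in R6/2, 0 to 28 for N-ZFP in NCAR, 10 to 31 for its difference, 0 to 25 for the genotype difference, 22 to 39 for N- over A-Delta, 0 to 7 for N-ZFP in zQ175 neuronal RNA and 36 to 41 for neuronal over bulk. Depth limits members near the floor of 3 counts, above all in neuronal libraries.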
